A study of Mus musculus with 5 samples.

Results

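The hypoxia-inducible factor (HIF) pathway was examined in neural tubes, the embryonic tissue that forms the brain and spinal cord, of mouse embryos with and without the erythropoietin receptor EpoR. The 10 genes described were chosen by symbol from the 23284 genes counted. They are the factor genes Hif1a and Epas1, the oxygen sensor genes Egln1 and Egln3, and the target genes Vegfa, Adm, Slc2a1, Pdk1, Bnip3 and Ankrd37. Polyadenylated RNA was sequenced from 2 EpoR-null samples (EpoR -/-), 2 wild type samples (EpoR +/+) and 1 heterozygote (EpoR +/-), and the last 2 genotypes together formed the 3 controls. The labels give the age of all samples as E8.5, whereas the paper names a slightly later stage. EpoR was deleted in every cell of the EpoR-null embryos, blood precursors included, so an effect within neural cells and one that reaches them through the blood cannot be told apart. EpoR-null embryos are known to die later of anemia, and the paper chose its stage in part because anemia is not yet significant then. The question here was whether genes that respond to low oxygen were higher without the receptor.

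HIF is a transcription factor made of an oxygen-regulated alpha subunit, encoded by Hif1a or Epas1 (HIF-2 alpha), and a stable partner encoded by Arnt. When oxygen is present, prolyl hydroxylases of the EGLN family mark the alpha subunit, the VHL complex binds the mark and the protein is degraded. When oxygen falls, the alpha subunit persists and activates genes for glucose uptake, glycolysis, blood vessel growth and mitochondrial turnover. The pathway thus acts mainly on protein stability, so that the RNA of the targets is more informative on its activity than the RNA of the factors. Erythropoietin itself is a classical HIF target.

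HIF binds the core letters ACGTG or GCGTG, and these were searched on both strands (also CACGT and CACGC, overlapping matches counted separately) in the 250 bases before each annotated start. A RefSeq window on GRCm38.p6 was found for 9 of the 10 genes, with Epas1 as the exception, and 9 of their 11 windows held a match. Of all 32851 promoter windows of this length, 38.6% held one. The 4 stretches printed here belong to targets with contrasting measurements below. Each runs from base -170 to base -11 before the start, 5′ to 3′ on the gene's strand, with the matches in capitals.
Slc2a1 (chr4:119108575-119108734, plus strand, 2 matches): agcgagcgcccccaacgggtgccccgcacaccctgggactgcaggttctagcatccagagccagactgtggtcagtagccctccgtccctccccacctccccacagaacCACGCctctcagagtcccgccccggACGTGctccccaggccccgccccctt
Pdk1 (chr2:71873054-71873213, plus strand, 1 match): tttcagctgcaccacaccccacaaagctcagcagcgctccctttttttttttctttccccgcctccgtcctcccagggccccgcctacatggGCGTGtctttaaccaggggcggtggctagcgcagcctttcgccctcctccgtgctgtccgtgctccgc
Bnip3 (chr7:138909517-138909676, minus strand, 5 matches): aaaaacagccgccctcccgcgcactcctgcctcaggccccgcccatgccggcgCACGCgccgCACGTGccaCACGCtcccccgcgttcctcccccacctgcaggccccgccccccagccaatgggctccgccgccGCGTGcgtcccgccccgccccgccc
Ankrd37 (chr8:45999861-46000020, minus strand, 2 matches): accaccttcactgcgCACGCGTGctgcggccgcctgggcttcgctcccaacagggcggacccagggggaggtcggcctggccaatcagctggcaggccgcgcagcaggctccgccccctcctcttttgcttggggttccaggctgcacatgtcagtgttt
The matches describe the letters in these windows. Binding was not measured.

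The libraries held from 19316126 to 41169218 reads on genes, and levels are given as CPM, counts scaled to the TMM-adjusted library size of each sample. Neural tube markers were present in every sample, with Sox2 between 220 and 309 CPM. The most abundant, Nes, had 579 to 738 CPM in controls and 777 and 368 CPM in EpoR-null replicates 1 and 2. Cdh2 had 377 to 429 CPM in controls and 354 and 305 CPM in these. For 4 of the 8 markers the EpoR-null samples lay on opposite sides of all controls, as for 20.6% of all genes tested. In 3 of these 4, EpoR-null replicate 1 was the lower. The heterozygote stood apart in what accompanied the neural tissue. The summed level of 10 endothelial markers was 27.5 CPM there, where the wild type samples had 229 and 368 CPM and the EpoR-null samples 325 and 216 CPM. Beside each pair of values replicate 1 is given first. The 8 primitive erythroid markers summed to 44.2 CPM in the heterozygote, 1092 and 603 CPM in the wild type and 1693 and 966 CPM in the EpoR-null samples. Neither in the exact test nor in DESeq2 did any of the 7 erythroid markers tested reach an unadjusted p of 0.05, and the globin RNA Hbb-y ranged from 15.8 to 425 CPM in controls against 801 and 388 CPM in EpoR-null samples. Markers of mesoderm and somites summed to 10.3 CPM in the heterozygote and 40.5 to 122 CPM elsewhere. Epor itself had 2.36, 1.62 and 0.476 CPM in wild type replicates 1 and 2 and the heterozygote, and 0.354 and 0.669 CPM in the EpoR-null samples (7 and 19 reads), so the heterozygote lay between the EpoR-null values and the receptor RNA did not separate the groups. Differences also followed transcript length across all genes. The median log2 fold change was 0.34 in the length quartile with the shortest transcripts and -0.32 in the one with the longest. Its part in the results was not tested beyond the length and GC offsets given with them, which remove each sample's trend of counts on both.

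Expression in EpoR-null samples was tested against the 3 controls with edgeR's exact test across 12703 genes, and a gene was called at p < 0.001 and FDR < 0.05 (the false discovery rate, adjusted over all genes tested). None of the 10 HIF pathway genes was called, where 4.77% of all genes tested were (3.84% lower and 0.929% higher). At FDR < 0.05 alone the count was also 0, against 7.31% of all genes (5.49% lower and 1.81% higher), and 0 had an unadjusted p under 0.05 in this test. Over all genes such p-values were common, since a gene at p 0.04998 in the exact test (Ak4) had an FDR of only 0.252. Counts at this p in the gene lists below are to be read beside that, as their share over all genes is not given. Only 9 genes were tested, since Adm had too few reads. Their log2 fold changes ran from -0.25 (Hif1a) to 0.31 (Ankrd37) with a median of 0.03, beside a median of 0.06 over all genes tested. For 8 of the 9 the 95% interval lay within a 2-fold difference in either direction, and Epas1 was the exception. These intervals take each gene's dispersion as known, so with 2 against 3 samples they are likely too narrow. In DESeq2 1 of the 9 genes, Hif1a, passed FDR < 0.05 (FDR 0.0352) but missed the call. Over all 12703 genes tested, 1737 passed FDR < 0.05 in DESeq2. The quasi-likelihood F-test of edgeR called 0 of all genes (lowest FDR 0.0590) and gave 1 of the 9, again Hif1a, an unadjusted p under 0.05. Without the heterozygote the exact test also called 0 of the 9. On simulated counts the exact test at FDR < 0.05 recovered only 39.8% of 2-fold changes. The absence of calls therefore says little about differences up to 2-fold.

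**Figure D1:**
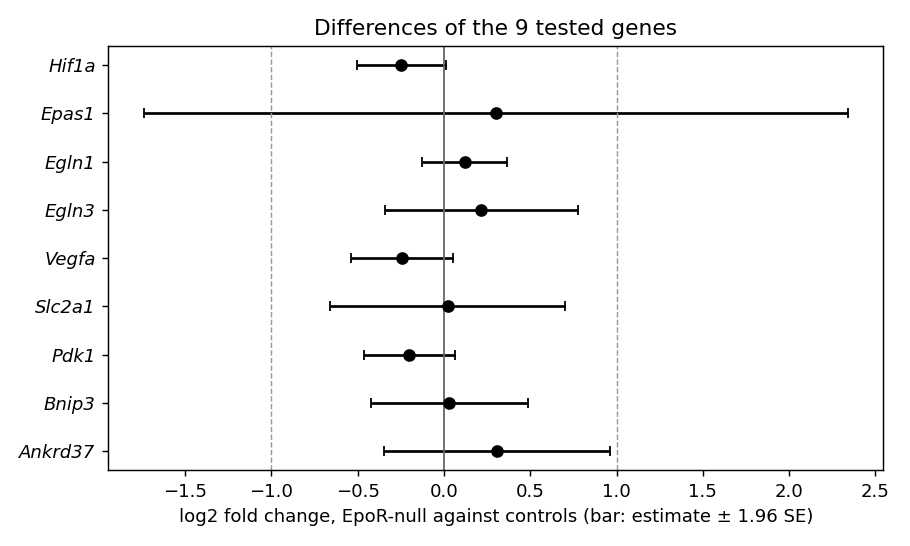
Log2 fold change of the 9 tested HIF pathway genes in EpoR-null samples (n = 2) against controls (n = 3). Points are estimates, bars are 95% intervals, and dashed lines mark a 2-fold difference. All bars cross 0, and that of Epas1 extends past both dashed lines.

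Levels were first compared between genes per length, as CPM per kilobase of the longest annotated transcript (RPKM). In controls Slc2a1 was the most abundant of the 10 at 294 RPKM, followed by Bnip3 (45.6), Hif1a (39.9), Egln1 (30.4), Pdk1 (20.2), Vegfa (18.0), Ankrd37 (4.71), Egln3 (4.21), Epas1 (1.27) and Adm (0.244). Bnip3 (40.0 to 48.6 RPKM over the controls) and Hif1a (39.2 to 40.7) overlapped, as did Ankrd37 (4.43 to 4.99) and Egln3 (3.82 to 4.89). Pdk1 (18.9 to 21.3) and Vegfa (17.1 to 18.8) were separated only narrowly. Hif1a was thus the abundant alpha subunit RNA in this tissue and Epas1 the scarce one.

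**Figure D2:**
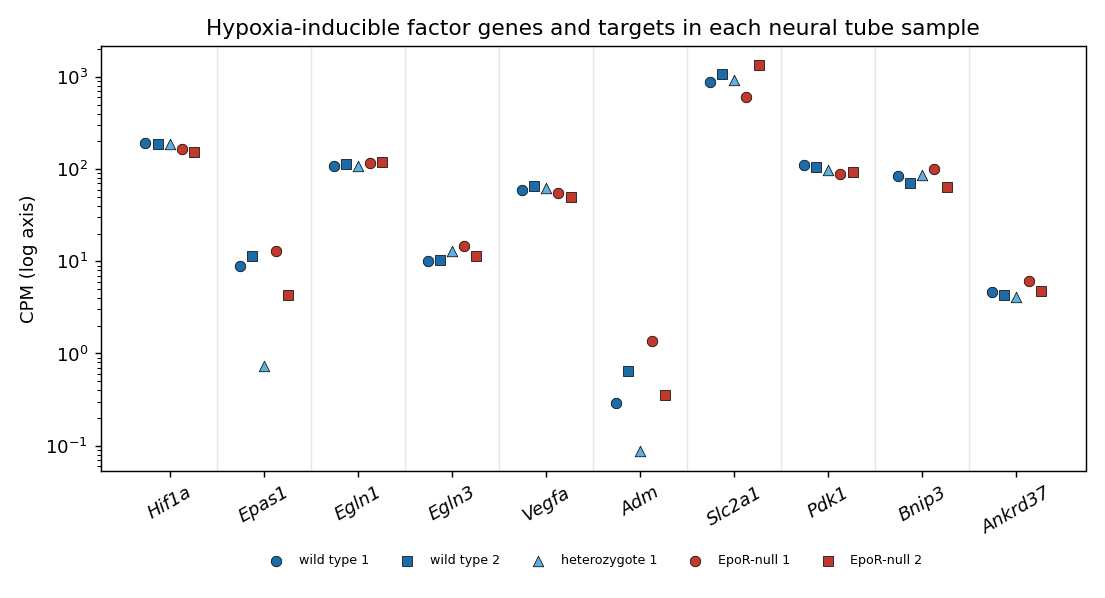
CPM of the 10 genes in each of the 5 samples on a log axis. Blue points are controls and red points EpoR-null samples. For most genes the 5 samples lie close together, whereas Epas1 and Adm drop in the heterozygote and Slc2a1 separates the EpoR-null samples, at 609 and 1339 CPM.

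Hif1a encodes the alpha subunit found in nearly all cell types. It had 192 and 185 CPM in wild type replicates 1 and 2 and 188 CPM in the heterozygote, while the EpoR-null samples had 164 and 154 CPM. The controls were tightly grouped (189 ± 3.64 CPM, SD, n = 3) and both EpoR-null samples lay below them (159 ± 7.34 CPM, SD, n = 2). The log2 fold change was -0.25 (SE 0.13, FDR 0.285 in the exact test of edgeR), an interval of 0.705-fold to 1.01-fold. Both EpoR-null samples lay below all controls for 22.1% of the genes tested, so this separation was common in these data. Hif1a transcripts are 4724 bases long, the 1703 tested genes of similar length (within 10%) had a median log2 fold change of -0.13, and with offsets for length and GC content the value for Hif1a was -0.05.

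Epas1 encodes HIF-2 alpha, which is best known from endothelial cells. Its CPM were 8.88 and 11.5 in the wild type, 0.735 in the heterozygote and 13.03 and 4.30 in EpoR-null replicates 1 and 2, so the controls spanned 15.6-fold and contained one EpoR-null value. The log2 fold change of 0.30 (SE 1.04, FDR 0.902) carried an interval from 0.299-fold to 5.06-fold and left both directions possible. Without the heterozygote it was -0.24. Epas1 was 1.99% to 4.01% of the summed level of the endothelial markers in the 5 samples, while that sum itself ranged from 27.5 to 368 CPM. Both were lowest in the heterozygote. Among the remaining samples they did not keep the same order. Wild type replicate 1 and EpoR-null replicate 2 had sums of 229 and 216 CPM but Epas1 at 8.88 and 4.30 CPM. In whole tissue, fewer endothelial cells and less Epas1 RNA per cell cannot be told apart, and the part of endothelial content in the Epas1 values was not tested.

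**Figure D3:**
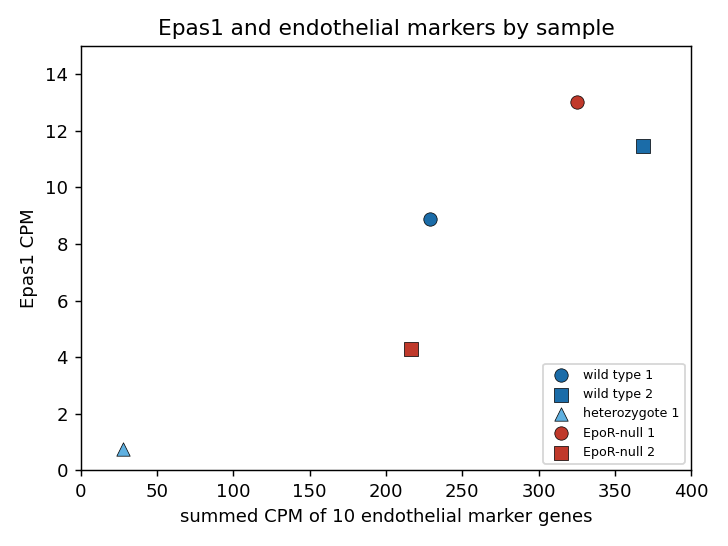
Epas1 CPM against the summed CPM of 10 endothelial marker genes in the 5 samples. The heterozygote is near the origin (27.5 and 0.735 CPM), and the EpoR-null samples (325 and 216 CPM of marker sum) lie near the wild type samples (229 and 368 CPM).

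The prolyl hydroxylases EGLN1 and EGLN3 are the sensors that mark HIF for degradation, and their genes are themselves HIF targets, EGLN3 strongly so. Egln1 had 108, 113 and 107 CPM in the controls (wild type 1 and 2, heterozygote) and 118 and 120 CPM in the EpoR-null samples. Both EpoR-null values were above all controls, as for 21.2% of genes tested, but the difference was small (log2 fold change 0.12, SE 0.13, FDR 0.645 in the exact test of edgeR). The upper bound of its interval was 1.29-fold. Egln3 had 10.2, 10.4 and 13.01 CPM in controls and 14.6 and 11.4 CPM in EpoR-null samples, and here the groups overlapped (log2 fold change 0.22, SE 0.29, FDR 0.720, upper bound 1.71-fold). The highest and the lowest of the 5 Egln3 values were EpoR-null replicate 1 and wild type replicate 1.

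Vegfa encodes the vascular growth factor that draws vessels into growing tissue. It had 59.1, 65.0 and 62.0 CPM in wild type replicates 1 and 2 and the heterozygote, against 55.6 and 49.3 CPM in EpoR-null samples. Both EpoR-null values lay below the controls (log2 fold change -0.24, SE 0.15, FDR 0.390 in the exact test of edgeR), and the interval ran from 0.689-fold to 1.04-fold. Unlike Hif1a and Pdk1, Vegfa was not moved toward 0 by the offsets for length and GC content, where it was -0.30 (likelihood-ratio test of edgeR, FDR 0.636). Adm encodes the vasodilator peptide adrenomedullin. It was close to the detection limit, with 7, 27 and 2 reads in controls and 27 and 10 reads in EpoR-null samples (0.289, 0.643, 0.0865, 1.36 and 0.352 CPM). The heterozygote was under the floor of 3 reads, and EpoR-null replicate 1 was the highest of all. Fitted without the filter on low counts, Adm had a log2 fold change of 1.24 (SE 0.95, FDR 0.677 in the exact test of edgeR). No difference was detected, with few reads and a wide spread within each group.

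The receptors of these ligands were read as a group. Of 8 genes for VEGF and adrenomedullin receptors, 0 were called by the exact test or by DESeq2, 2 had an unadjusted p under 0.05 in each, and their median log2 fold change was -0.004. Kdr, the main VEGF receptor of endothelium, had 60.2, 85.9 and 6.14 CPM in controls and 62.7 and 30.3 CPM in EpoR-null samples, so the heterozygote was again lowest. Nrp2, a VEGF co-receptor also made by neural cells, had 95.6, 84.0 and 75.6 CPM in controls against 70.8 and 54.5 CPM in EpoR-null samples (log2 fold change -0.44, FDR 0.159). Both EpoR-null samples lay below all controls for 1 of the 8 genes (Nrp2), as for 22.1% of all genes tested. They lay above all controls for 2 (Ramp2 and Ramp3), as for 21.2% of all genes tested. Ramp3 had 2.809, 3.645 and 2.248 CPM in controls against 4.899 and 5.388 CPM in EpoR-null samples (log2 fold change 0.82, FDR 0.185). Ramp2 had a log2 fold change of 1.01 (SE 0.74, FDR 0.464). Nrp2 and Ramp3 were the 2 genes with an unadjusted p under 0.05 in the exact test, which was also common over all genes tested. Ramp2 and Ramp3 were named after their values were seen.

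Slc2a1 encodes GLUT1, the glucose transporter of embryonic and barrier tissues, and was by far the most expressed of the 10 genes. It had 878, 1075 and 928 CPM in wild type replicates 1 and 2 and the heterozygote. EpoR-null replicate 1 had 609 CPM, below every control, and EpoR-null replicate 2 had 1339 CPM, above every control. EpoR-null samples lay on opposite sides of all controls for 20.6% of the genes tested. The mean of the pair (974 ± 516 CPM, SD, n = 2) was therefore close to that of the controls (960 ± 103 CPM, SD, n = 3), with a log2 fold change of 0.02 (SE 0.35, FDR 0.981 in the exact test of edgeR). The EpoR-null samples themselves differed 2.20-fold, where the controls spanned 1.23-fold. Wild type replicate 2 was likewise above wild type replicate 1, by 1.23-fold. With 1 EpoR-null library left out the result followed the other. Such a fit compares a single EpoR-null library with the controls, takes the spread from the 3 controls alone and assumes that the lone library varies as they do. Without replicate 2 the log2 fold change of Slc2a1 was -0.66, and without replicate 1 it was 0.48.

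For the other metabolic targets the EpoR-null samples differed less from each other than for Slc2a1, by 1.04-fold for Pdk1 and 1.55-fold for Bnip3. Pdk1 encodes the kinase that keeps pyruvate out of mitochondria. It had 111, 105 and 98.0 CPM in controls and 89.1 and 93.1 CPM in EpoR-null samples, which were lower in both cases (log2 fold change -0.20, SE 0.13, FDR 0.433 in the exact test of edgeR, upper bound 1.05-fold). Its 5185-base transcript belongs to a length class with a median of -0.19, and with the offsets it was 0.02. Bnip3 encodes a mitochondrial protein that directs mitochondria to autophagy and is among the most hypoxia-responsive genes known. It had 84.5, 70.2 and 85.4 CPM in controls and 99.3 and 64.3 CPM in EpoR-null samples, on opposite sides of the controls and in the reverse order to Slc2a1, an order found for 9.73% of the genes tested (log2 fold change 0.03, SE 0.23, FDR 0.963). Ankrd37, a small ankyrin-repeat gene used as a marker of HIF activity, had 4.63, 4.36 and 4.11 CPM in controls and 6.11 and 4.72 CPM in EpoR-null samples. Both EpoR-null values were above the controls, but the highest control and the lower EpoR-null sample differed by less than the EpoR-null pair did (log2 fold change 0.31, SE 0.33, FDR 0.657). In GENCODE M21 (GRCm38) the gene overlaps Ufsp2 and Lrp2bp on the opposite strand, and Slc2a1, Hif1a, Adm and Bnip3 overlap antisense genes. Whether the counting used strand is not given in the sources used here, so their values are uncertain to that extent. On the same strand Hif1a overlaps Gm49321, Epas1 overlaps AC096777.1 and Slc2a1 overlaps Mir1957a, which can affect counts with or without strand. At 927 bases Ankrd37 is the shortest of the 10 transcripts. Genes of similar length had a median log2 fold change of 0.47, and with the offsets Ankrd37 was -0.09. Ankrd37 had the largest absolute fold change of the 9, and the 3 genes whose centred log2 CPM came closest to it over the 5 samples were Adamts8, Tatdn3 and Creld1, at root mean square distances of 0.0245, 0.0327 and 0.0382.

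Across the 10 genes, the groups did not overlap for 5 of the 9 tested (Hif1a, Vegfa and Pdk1 lower, Egln1 and Ankrd37 higher), where 43.3% of all genes tested did not overlap. The targets did not share a direction.

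Glycolytic enzymes are the broadest group of HIF targets, and 15 genes of this group, transporters included, were read beside Slc2a1. None was called by the exact test or by DESeq2, 1 and 2 had an unadjusted p under 0.05 in these, and the median log2 fold change was 0.19. Replicate 2 was above replicate 1 for 14 of the 15 genes in the EpoR-null samples and also for 14 of the 15 in the wild type, so the direction was shared by both genotypes. The median ratio of replicate 2 to replicate 1 was 1.55 in the EpoR-null and 1.12 in the wild type samples, and 0.993 and 0.99 over all genes tested. In 7 genes (Pfkl, Aldoa, Pgk1, Pgam1, Ldha, Slc16a3 and Slc2a3) EpoR-null replicate 1 was the lowest and EpoR-null replicate 2 the highest of the 5 samples, an order found for 10.9% of all genes tested. Ldha, which makes lactate from pyruvate, had 2584, 2753 and 2599 CPM in wild type replicates 1 and 2 and the heterozygote, and 2241 and 3952 CPM in the EpoR-null samples. Gapdh had 2320, 2662 and 2476 CPM in controls and 2354 and 3874 CPM in EpoR-null samples. Slc2a3, the neuronal glucose transporter GLUT3, had 111, 118 and 103 CPM in controls and 43.7 and 191.8 CPM in EpoR-null samples, a 4.39-fold difference within the pair. By contrast, Pfkp was higher in replicate 1 (9.24 against 7.32 CPM), and Pfkfb3, the enzyme that activates glycolytic flux, had 53.8 and 54.0 CPM in EpoR-null samples and 65.0 to 74.7 CPM in controls (log2 fold change -0.39, FDR 0.0848). Eno1 counts were only 2.12 to 3.88 CPM, and since the counting left out reads that align to several places, enzymes with near-identical copies are uncertain here. Of these genes only Ldha and Gapdh were named as the most abundant. The others were chosen after their values were seen.

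**Figure D4:**
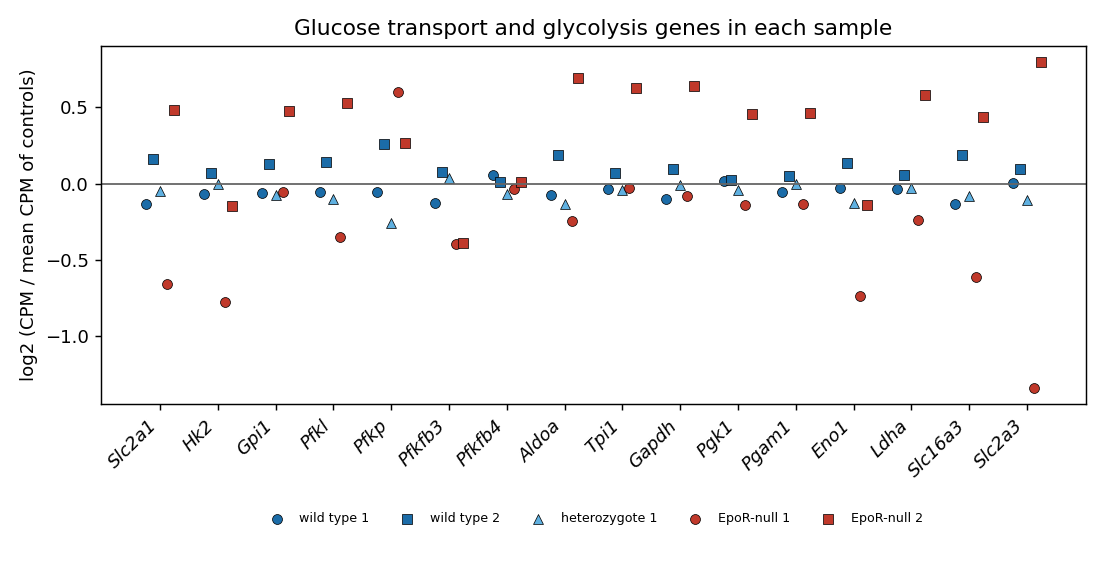
Log2 ratio of each sample's CPM to the mean of the 3 controls for Slc2a1 and 15 glycolytic HIF targets. Blue points are controls and red points EpoR-null samples (circle, replicate 1, and square, replicate 2). In most genes the red square is above and the red circle at or below the controls, with Slc2a3 the widest apart at 43.7 and 191.8 CPM.

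Among 14 genes for HIF partners, coactivators and turnover, 2 were called, both lower, where 4.77% of all genes tested were called and 3.84% were called lower. The median log2 fold change of the 14 was 0.05, and 0.06 over all genes tested. In the exact test 7 of the 14 had an unadjusted p under 0.05, which was also common over all genes tested. Ep300 and Crebbp encode the related acetyltransferases p300 and CBP, which HIF and many other factors use as coactivators. Ep300 fell by 0.83 on the log2 scale (SE 0.13, FDR 5.25e-07 in the exact test of edgeR), with 133, 123 and 132 CPM in controls against 75.5 and 69.5 CPM in EpoR-null samples. Crebbp fell by 0.91 on the log2 scale (SE 0.20, FDR 0.000799), with 56.4, 55.5 and 60.1 CPM against 35.6 and 25.4 CPM. Without wild type replicate 1 the FDR of Crebbp was 0.0697. Their transcripts are long (9566 and 10820 bases), and with offsets for length and GC content their values were -0.39 (FDR 0.417) and -0.45 (FDR 0.174) in the likelihood-ratio test. Tceb2 and Rbx1, elongin B and the RING subunit of the VHL ligase, passed FDR < 0.05 alone and were higher, with log2 fold changes of 0.55 (FDR 0.0337) and 0.43 (FDR 0.0257). For Tceb2 the 581-base transcript gave 0.05 with the offsets, and Rbx1 gave 0.37 (FDR 0.383). Neither passed without wild type replicate 1, wild type replicate 2 or the heterozygote, and Tceb2 did not pass without EpoR-null replicate 2 either (FDR up to 0.430 for Tceb2 and 0.410 for Rbx1). Arnt, the obligate partner, had 61.1, 58.0 and 56.5 CPM in controls and 51.1 and 45.2 CPM in EpoR-null samples (log2 fold change -0.28, FDR 0.299). Vhl had 42.1 to 43.5 CPM in controls and 52.5 and 44.6 CPM in EpoR-null samples (log2 fold change 0.18, FDR 0.581). Arnt and Vhl were named for their roles, after their values were seen. With the quasi-likelihood F-test the calls of Ep300 and Crebbp were lost (FDR 0.0590 and 0.0701).

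Of 30 further HIF targets, 26 were tested and 1 was called, a share close to the 4.77% of all genes tested that were called (3.84% lower). The called gene was Tfrc, the transferrin receptor that brings iron into cells, which fell by 0.96 on the log2 scale (SE 0.18, FDR 3.66e-05 in the exact test of edgeR). It had 347, 263 and 326 CPM in wild type replicates 1 and 2 and the heterozygote, against 156 and 166 CPM in EpoR-null samples, and kept FDR < 0.05 with each sample left out (up to 0.0146). With the offsets it was at -0.70 (FDR 0.0509), and with the quasi-likelihood F-test its FDR was 0.0615. HIF raises Tfrc in hypoxia, and the gene is strongly expressed in red cell precursors and dividing cells. The erythroid marker sums given above were 1693 and 966 CPM in the EpoR-null samples and 44.2 to 1092 CPM in controls. Their part in the Tfrc values was not tested. Fam162a, a mitochondrial protein gene induced by HIF, passed FDR < 0.05 alone and was higher at 85.1 and 95.4 CPM against 62.7 to 67.7 CPM in controls (log2 fold change 0.46, FDR 0.0214). Its transcript is 718 bases, and with the offsets it was at 0.08 (FDR 0.9999). Without wild type replicate 1, wild type replicate 2 or the heterozygote it did not pass (FDR up to 0.353). The median over the 26 genes was -0.02. In the exact test 6 of them had an unadjusted p under 0.05, which was also common over all genes tested. Bnip3l, the relative of Bnip3, was among the most abundant and level, with 210, 181 and 199 CPM in controls and 208 and 189 CPM in EpoR-null samples (log2 fold change 0.02, FDR 0.973). Epo, named after its values were seen because it encodes the ligand of the missing receptor, was detected in every sample, with 71, 136 and 59 reads in controls (2.93, 3.24 and 2.55 CPM) and 39 and 102 reads in EpoR-null samples (1.97 and 3.59 CPM). Its log2 fold change was -0.06 (SE 0.43, FDR 0.972), and the EpoR-null samples lay on opposite sides of the controls. Car9, which many cells express only in hypoxia, had 6 to 12 reads in controls and 15 and 10 reads in EpoR-null samples, too few to be tested.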

How the data were processed

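RNA-seq counts were analysed for 5 mouse neural tube samples. Before deposit the authors used Trimmomatic 0.32 for trimming, TopHat for alignment and HTSeq 0.6.1 for counting by gene symbol. The deposited values are raw read counts, 1 table per sample, without normalization. The submitters' processing notes name TopHat2 2.1.0 and mm9, while the paper's methods name hg19 and another Tophat version. HTSeq summary lines were not used as genes, and reads outside genes were 8.12% to 11.0% of uniquely aligned reads. Samples were grouped by their titles. Whether a library holds 1 embryo or several is not given in the sources used here, so p-values measure the spread between these libraries.

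Following the paper, TMM normalization and exactTest of edgeR 4.0.16 (R 4.3.3) with tagwise dispersions compared 2 EpoR-null samples with 3 controls. The filter kept genes at CPM above 1 in 2 or more samples, and Benjamini-Hochberg adjustment covered all of them. SEs come from the negative binomial information. At the depths given, 3 reads equal 0.0715 to 0.152 CPM. Alternatives were the quasi-likelihood F-test, without and with the replicate number as a block, DESeq2 1.42.0, RLE or library size scaling, other filters and each sample left out. Wild type controls only were used in a quasi-likelihood F-test that kept the heterozygote as its own group. Offsets removing each sample's loess trend (span 0.5) on length and GC content were used with the likelihood-ratio test. Lengths are those of the longest GENCODE M21 (GRCm38) transcript, matched by symbol for 99.1% of tested genes. Tests were checked on simulated data.

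The 10 genes, the pathway and marker lists and the tests were chosen with earlier results of these data known. Within a pathway list, genes passing a call rule and the 2 most abundant were named. The gene with the largest absolute fold change was to be given with its 3 nearest genes if none of the 10 passed. Promoter sequences are from RefSeq, GRCm38.p6.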

Additional observations from a re-analysis of the deposited data

How the results depend on the processing

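The count of called HIF pathway genes stayed at 0 of 9 in every alternative run but 1: without EpoR-null replicate 2 the exact test called 1 (Slc2a1), in a fit of a single EpoR-null library that takes its spread from the 3 controls and assumes the lone library varies as they do, so the count with each sample left out ranged from 0 to 1. Their median log2 fold change was 0.03, and -0.17 to 0.11 with each sample left out. Over all genes, 606 were called, against 0 with the quasi-likelihood F-test (lowest FDR 0.0590), 291 with the replicate block, 1028 with DESeq2, 168 with length and GC offsets, 0 with wild type controls only, 0 with both the block and the offsets (an alternative chosen after seeing the data), and 115 to 2296 with each sample left out. The cause of these shifts was not tested.

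Hif1a, Egln1, Egln3 and Vegfa kept their direction in all alternatives. Slc2a1, at 0.02, turned to -0.179 with the replicate block, -0.052 with library size scaling, -0.019 without a filter, -0.003 with wild type controls only, -0.082 with the offsets and -0.272 with block and offsets, and ranged from -0.659 to 0.48 with each sample left out. Bnip3, at 0.03, turned to -0.001 with library size scaling, -0.001 without a filter, -0.143 with the offsets and -0.108 with block and offsets, and ranged from -0.314 to 0.312 with each sample left out. Epas1 was -0.24 with wild type controls only and ranged from -0.715 to 0.882. Pdk1 was 0.018 with the offsets. Ankrd37 was -0.091 with the offsets and -0.069 with block and offsets.

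Wild type and EpoR-null samples share replicate numbers, but no source says that a number marks a litter or batch. Across 12703 genes the differences between replicates 1 and 2 in the 2 genotypes correlated (Pearson r 0.427, Spearman rho 0.529, genes not being independent). With only 2 pairs the main comparison had no replicate block, and the block is given only as an alternative, where it called 0 of the 9 HIF pathway genes. The 2 EpoR-null samples limit every estimate, and Adm and Car9 had too few reads to pass the filter.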
